A study of Mus musculus with 4 samples.

Results

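The 49 genes described here encode the Wnt ligands and the proteins through which cells receive, amplify and limit the Wnt signal. They were picked by gene name from the 56884 genes of the count tables and comprise 19 Wnt ligand genes (*Wnt*), 10 Frizzled receptor genes (*Fzd*), 4 R-spondin genes (*Rspo*), 4 genes of secreted Frizzled-related proteins (*Sfrp1*, *Sfrp2*, *Sfrp4* and *Sfrp5*) and 12 further genes of co-receptors, feedback regulators and nuclear effectors (*Axin2*, *Rnf43*, *Znrf3*, *Lef1*, *Tcf7*, *Tcf7l1*, *Tcf7l2*, *Lrp5*, *Lrp6*, *Lgr4*, *Lgr5* and *Nkd1*). Their transcripts were counted in single nuclei that were isolated from frozen medial cortex tissue of mouse embryos at the stage E16.5. The control libraries came from *Sst-Cre/tdTomato* embryos, in which Cre from the somatostatin gene (*Sst*) switches on a red fluorescent reporter. The Dnmt1 KO libraries came from *Sst-Cre/tdTomato/Dnmt1 loxP2* embryos, which carry the same Cre and reporter and in addition loxP-flanked alleles of *Dnmt1*, the gene of DNA methyltransferase 1. Each genotype had 2 libraries from separate brains, named here Dnmt1 KO 1, Dnmt1 KO 2, control 1 and control 2, and lists of 4 values are given in this order.

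By the design Cre acts in postmitotic interneurons of the *Sst* lineage. The progenitors, excitatory neurons and midline cells described below are thus not the cells in which the deletion is meant to occur. A genotype comparison in them asks by design about cells around the targeted ones. *Dnmt1* read 129, 90.6, 121 and 117 CPM (transcript counts scaled to a common total for every class and library) in radial glia and 60.7, 50.3, 67.5 and 54.6 CPM in interneurons. The groups overlapped in both classes. In the *Eomes* class it read 53.4, 48.6, 60.7 and 66.4 CPM and in neurons 47.1, 39.7, 47.4 and 48.5 CPM, where both Dnmt1 KO libraries lay below both controls. That order held for 25.5% of all genes tested in the *Eomes* class and for 24.6% in neurons. In the hem class, defined below, *Dnmt1* read 64.5, 47.2, 67.8 and 39.3 CPM, with overlapping groups. The tables hold no entry for Cre or tdTomato, recombined cells were therefore not identified, and whether the counted reads fall in the deleted part of *Dnmt1* is not given in the sources used here.

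As background, secreted Wnt proteins bind Frizzled receptors together with the co-receptors Lrp5 and Lrp6, which protects β-catenin from degradation and lets it activate genes together with the DNA-binding proteins Lef1 and Tcf7, Tcf7l1 and Tcf7l2. *Axin2*, *Rnf43*, *Znrf3* and *Nkd1* are switched on by the pathway and dampen it, R-spondins acting through Lgr4 and Lgr5 remove the ubiquitin ligases Rnf43 and Znrf3 from the cell surface, and Sfrp proteins bind Wnts outside the cell. In the embryonic forebrain the cortical hem, a strip of midline tissue at the edge of the medial cortex next to the choroid plexus, is a known source of Wnt ligands for the hippocampal and cortical primordium.

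Barcodes with 1500 to 60000 transcripts were kept, which left 5640, 12064, 7047 and 4905 nuclei with a median of 12274, 12383.5, 12401 and 21140 transcripts, and no barcode was shared between libraries. Control 2 was the only library of batch 2 and had 2 sublibraries against 8 in the others, so batch, depth and library cannot be told apart in it. Nuclei were assigned to classes by marker transcripts. The hem class required at least 2 transcripts of *Lmx1a*, a transcription factor gene of the dorsal midline, and held 120, 142, 47 and 25 nuclei (2.13%, 1.18%, 0.667% and 0.510% of the retained nuclei). The radial glia class held 915, 1113, 634 and 411 nuclei, the *Eomes* class (intermediate progenitors) 670, 780, 578 and 532, the excitatory neuron class 2988, 7060, 3837 and 3251, and the interneuron class 325, 1589, 1388 and 477. Dnmt1 KO 2 held 121 of the choroid and 231 of the meningeal nuclei, against at most 1 and 4 in any other library. Each class was summed per library, and in such sums fewer expressing cells and less RNA per cell cannot be told apart. P-values measure the spread between these libraries.

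The hem class was checked with 6 hem genes that the gate did not use. Their summed level was 327, 284, 264 and 279 CPM in the hem class and 33.1, 15.2, 30.7 and 12.7 CPM in radial glia. *Otx2*, *Bmp6*, *Bmp7*, *Msx1* and *Msx2* were detected in the hem class, and *Gdf7* was at 0. Genes of other classes were also counted in it. A list of 5 excitatory neuron genes summed to 895, 1007, 1573 and 609.9 CPM there, a list of 5 interneuron genes to 2439, 1848, 3127 and 1782 CPM and a list of 3 choroid plexus genes to 145, 734, 386 and 300.0 CPM. In radial glia the same lists summed to at most 649, 176 and 10.6 CPM. *Otx2* belongs to both the hem and the choroid list, so these sums share a gene. Without hem nuclei that carry choroid genes, 30 genes differed from radial glia in the comparison below, and 29 without those that carry neuron genes, in place of 31. Of the 120, 142, 47 and 25 hem nuclei, 109, 111, 40 and 21 were left without choroid genes. Without neuron genes 89, 88, 27 and 11 were left, so a large part of the class carried at least 3 neuron markers. These settings were added after the data were seen.

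Of the 49 genes, 38 had at least 100 transcripts in the retained nuclei. The remaining 11 (*Wnt1*, *Wnt2*, *Wnt8a*, *Wnt9b*, *Wnt10a*, *Wnt10b*, *Wnt11*, *Wnt16*, *Rspo4*, *Fzd10* and *Sfrp5*) had fewer, and for most of them a difference was not detectable at this depth. The levels of the genes fell into a few clear patterns over the classes. *Wnt3a*, *Rspo1*, *Wnt8b*, *Rspo2*, *Wnt9a* and *Wnt2b* were concentrated in the hem class, *Fzd8*, *Sfrp1*, *Wnt7a* and *Tcf7l1* were high in radial glia, *Wnt7b* was high in neurons, and *Fzd3* and *Lrp6* were present in every class.

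**Figure D1:**
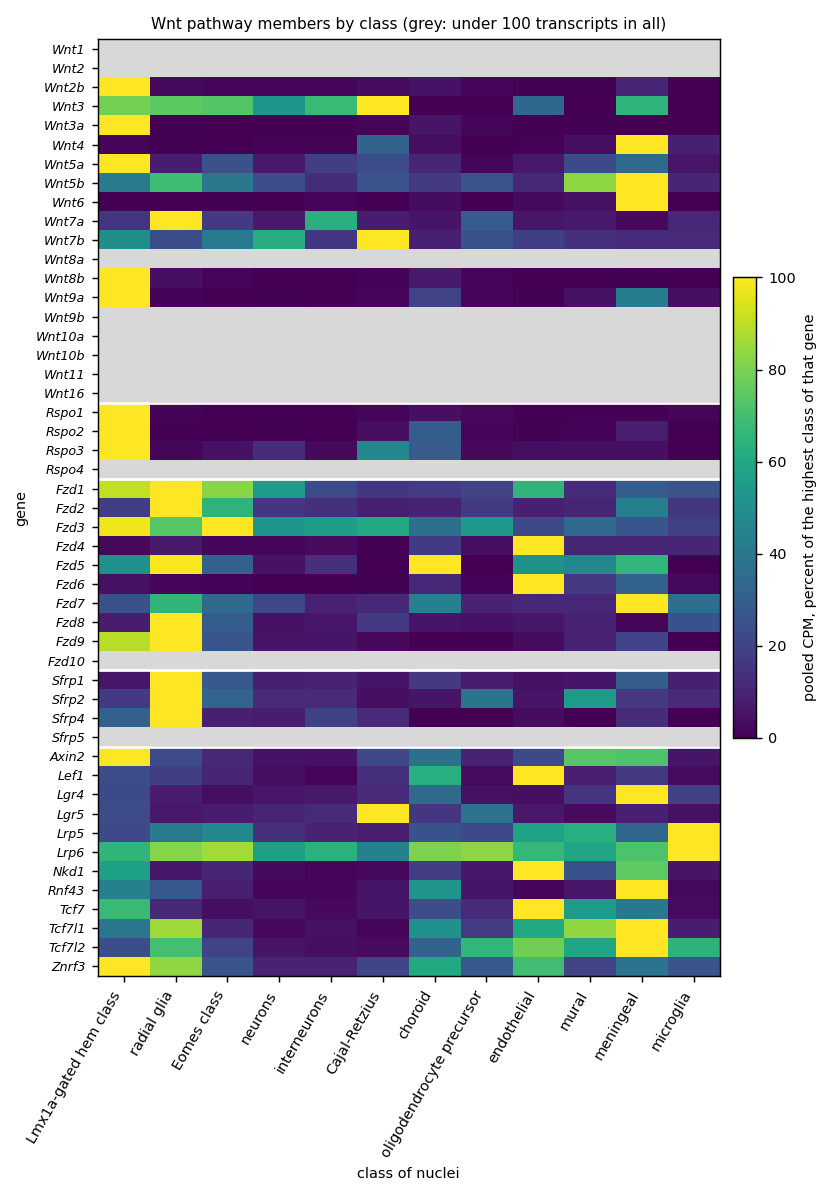
Level of each gene in each class, with genes in rows, classes in columns and the colour giving the pooled CPM as a percentage of the highest class of that gene (genes under 100 transcripts are grey). *Rspo1*, *Rspo2*, *Rspo3*, *Wnt2b*, *Wnt3a*, *Wnt5a*, *Wnt8b* and *Wnt9a* reach 100% in the hem class, while *Wnt7a*, *Sfrp1* and *Fzd8* do so in radial glia.

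The comparison of the hem class with radial glia asked which Wnt genes set this midline source apart from the progenitors beside it. Of 36 genes that passed the low-count filter, 31 differed by edgeR's quasi-likelihood test with the library as a block, 20 of them higher and 11 lower in the hem class. Among all 15868 genes tested, 42.2% differed, 21.9% in the higher and 20.4% in the lower direction. All 3 tested R-spondins and 6 of 8 tested Wnt ligands were higher in the hem class and 1 ligand was lower, 3 Frizzled genes were higher and 3 lower of 10, all 3 tested *Sfrp* genes were lower, and of the 12 remaining genes 8 were higher and 4 lower. The median log2 difference was 0.54 over the 36 genes and -0.02 over all genes tested. The 13 genes that did not pass the filter were not tested. The filter kept a gene that was high enough in 1 class, so *Wnt3a*, *Wnt9a* and *Rspo1*, which passed in the hem class alone and not in radial glia, entered through the class where they are high. Likewise 9 genes passed in radial glia and not in the hem class (*Fzd2*, *Fzd4*, *Fzd5*, *Fzd7*, *Fzd8*, *Fzd9*, *Lgr5*, *Sfrp2* and *Sfrp4*). Of them 5 were lower in the hem class (*Fzd2*, *Fzd7*, *Fzd8*, *Sfrp2* and *Sfrp4*) and so entered through the class where they are high. *Fzd10* passed in neither class by itself. These counts and the median are therefore descriptions. Among the 23 genes that passed in each class by itself, 21 differed, 15 higher and 6 lower, with a median of 0.76, where 52.5% of 9779 genes differed, 26.8% higher and 25.7% lower.

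All 3 tested R-spondin genes were higher in the hem class. *Rspo2* read 2579, 2924, 2049 and 4512 CPM in the hem class and 5.58, 4.29, 0.630 and 1.07 CPM in radial glia, a log2 difference of 10.14 ± 0.62 (SE, adjusted p = 2.89e-09). *Rspo3* read 898, 1076, 821 and 1731 CPM in the hem class against 21.7, 14.8, 10.6 and 7.72 CPM in radial glia (log2 6.54 ± 0.34). *Rspo1* read 177, 139, 90.4 and 157 CPM against 2.74, 0.874, 0 and 0.533 CPM (log2 7.17 ± 0.32). For each of these 3 genes the lowest hem library lay far above the highest radial glia library. Scaled by the length of the gene on the genome, the level in the hem class was 19.2 ± 6.74 CPM per kb (SD, n = 4) for *Rspo2* and 13.4 ± 4.89 for *Rspo3*, which overlap, and 6.12 ± 1.61 for *Rspo1*.

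*Wnt3a*, a ligand long known as a marker of the hem, was concentrated in the hem class. It read 123, 109.6, 89.4 and 128 CPM there and 0.274, 0, 0 and 0 CPM in radial glia, where 3 transcripts were counted in all, every one of them in 1 nucleus of Dnmt1 KO 1. The pooled level in the hem class was 1460.0 times that in radial glia (95% counting interval 497 to 7098), and the fitted log2 difference of 10.54 depends on the prior count at such a low reference. *Wnt9a*, whose gene lies next to *Wnt3a*, read 71, 47.2, 52.4 and 126 CPM in the hem class and 0.823, 0.318, 0.882 and 0.666 CPM in radial glia (log2 6.88 ± 0.40). *Wnt3a* occupies chr11:59138859-59181584 on the minus strand and *Wnt9a* chr11:59197567-59224378 on the plus strand (GRCm39), so the genes face away from each other across 15982 bases. Both were high in all 4 hem libraries.

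*Wnt8b*, a ligand of the medial pallium, read 287, 233, 172 and 387 CPM in the hem class and 21.4, 8.34, 6.17 and 4.26 CPM in radial glia (log2 5.04 ± 0.35). *Wnt2b* read 54.1, 53, 52.4 and 102 CPM against 1.74, 1.51, 1.64 and 0.932 CPM (log2 5.52 ± 0.24). *Wnt5a*, which is known mainly for signalling that does not use β-catenin, read 177, 121, 124 and 182 CPM against 15.3, 12.7, 9.57 and 5.73 CPM (log2 3.94 ± 0.32). The hem and radial glia libraries did not overlap for any of these ligands. *Wnt7b* differed less. It read 45.9, 56.6, 56.5 and 47.5 CPM in the hem class and 13.2, 37.4, 23.4 and 23.8 CPM in radial glia (log2 1.29 ± 0.22).

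*Wnt7a*, a close paralogue of *Wnt7b*, went the other way. It read 25.7, 7.57, 20.5 and 23 CPM in the hem class and 110.0, 91, 131 and 154 CPM in radial glia, a log2 difference of -2.53 ± 0.27 (adjusted p = 1.01e-06). No hem library reached the lowest radial glia library. *Wnt5b* did not pass the test (log2 -0.54 ± 0.22, adjusted p = 0.0572).

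**Figure D2:**
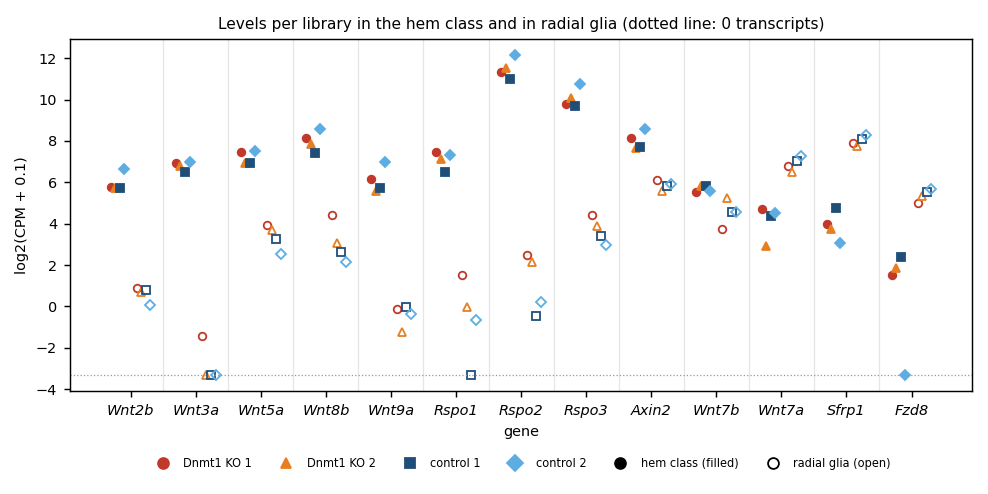
Level of the named genes in the hem class and in radial glia, with 1 point per library on the scale log2(CPM + 0.1), filled for the hem class and open for radial glia, and a dotted line at 0 transcripts. The 4 hem points of each R-spondin and of *Wnt3a*, *Wnt9a*, *Wnt2b*, *Wnt8b* and *Wnt5a* lie above all radial glia points, and those of *Wnt7a*, *Sfrp1* and *Fzd8* below them.

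For 16 genes every hem library lay above, and for 10 every one below, all radial glia libraries, which held for 12.4% and 22.9% of all genes tested. The same counts are described here nucleus by nucleus, which lends the comparison no separate support. A *Wnt3a* transcript was found in 151 of 334 hem nuclei (45.2%) and in 1 of 3073 radial glia nuclei (0.0325%). The shares in hem and radial glia nuclei were 83.2% and 7.26% for *Rspo3*, 76.6% and 1.07% for *Rspo2*, 71.6% and 9.21% for *Wnt5a*, 68.9% and 5.82% for *Wnt8b*, and 49.7% and 1.01% for *Rspo1*. Hem nuclei were somewhat deeper, with a median of 14421 transcripts against 11539. Of the 8 ligand genes of the hem (*Wnt2b*, *Wnt3a*, *Wnt5a*, *Wnt8b*, *Wnt9a*, *Rspo1*, *Rspo2* and *Rspo3*), a hem nucleus held transcripts of a median of 5 (5, 5, 4 and 5 in the libraries), and 63.8% of hem nuclei held at least 4. In radial glia the median was 0, and 0.260% of nuclei held at least 4. Transcripts of several of these ligands thus occurred in the same nuclei. The 8 genes were picked because they were called higher in the hem class in these same counts. The contrast with radial glia therefore follows from the choice. *Wnt7b*, also called higher, was left out and was found in 37.4% of hem and 16.6% of radial glia nuclei.

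The hem class made up 1.13% of the retained nuclei but held 89.6% of all *Wnt3a* transcripts (636 of 710), 83.7% of *Rspo1*, 66.6% of *Rspo2*, 65.2% of *Wnt8b*, 53.8% of *Wnt9a* and 41.6% of *Wnt2b*. It held 10.9% of *Rspo3* and 10.5% of *Wnt5a*, which other classes also expressed, and 1.21% of *Wnt7b*. Between libraries the share in the hem class ran from 84.8% to 94.9% for *Wnt3a*, from 77.9% to 86.4% for *Rspo1*, from 58.0% to 84.4% for *Rspo2*, from 58.3% to 80.3% for *Wnt8b*, from 36.1% to 76.0% for *Wnt9a* and from 33.8% to 57.9% for *Wnt2b*.

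Several receptor and inhibitor genes were lower in the hem class than in radial glia. Of these, *Fzd2*, *Fzd7*, *Fzd8*, *Sfrp2* and *Sfrp4* passed the filter through radial glia alone, where they are high. Their differences are therefore descriptions. *Sfrp1*, a secreted Wnt inhibitor, read 237, 213, 271 and 311 CPM in radial glia and 15.8, 13.4, 26.7 and 8.20 CPM in the hem class (log2 -3.79 ± 0.15). *Fzd8* read 31.5, 40.0, 47 and 51.3 CPM in radial glia and 2.73, 3.56, 5.14 and 0 CPM in the hem class (log2 -3.51 ± 0.23). The libraries did not overlap for either gene. *Sfrp2* (log2 -2.34), *Sfrp4* (-1.58), *Fzd2* (-2.25) and *Fzd7* (-1.22) were also lower in the hem class, while *Fzd6* (1.77), *Fzd3* (0.59) and *Fzd10* were higher. *Fzd10* was rare, with 2.19, 7.13, 6.16 and 6.56 CPM in the hem class and a single transcript in radial glia. Its pooled level was 207 times higher in the hem class (95% counting interval 34.4 to 8429.9). *Fzd1*, *Fzd4*, *Fzd5* and *Fzd9* did not pass the test. Of the co-receptors, *Lrp5* (-0.67) and *Lrp6* (-0.17) were slightly lower in the hem class, and the R-spondin receptors *Lgr4* (1.66) and *Lgr5* (1.78) were higher.

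Among the genes that the pathway itself switches on, *Axin2* read 279, 202, 211 and 385 CPM in the hem class and 69.8, 47.1, 56.3 and 59.5 CPM in radial glia (log2 2.34 ± 0.17, adjusted p = 2.43e-08). All hem libraries lay above all radial glia libraries. *Nkd1*, an inhibitor that binds Dishevelled, read 321, 155, 197 and 315 CPM in the hem class and 33.6, 28.9, 30.0 and 7.72 CPM in radial glia (log2 3.47 ± 0.31). *Tcf7* was also higher in the hem class (log2 2.81 ± 0.21). *Rnf43* (log2 0.76 ± 0.19), *Znrf3* (0.37 ± 0.13) and *Lef1* (0.48 ± 0.18) were higher in the hem class by a smaller margin and in 3 of 4 libraries each. *Lef1* passed the threshold closely (adjusted p = 0.0409) and missed it in 6 of 14 other settings, and *Znrf3* and *Rnf43* missed it in 3 each. *Tcf7l2* (log2 -1.39 ± 0.17) and *Tcf7l1* (-0.97 ± 0.16) were lower in the hem class.

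*Axin2* is a widely used reporter gene of the β-catenin pathway, and its start region was searched for the core of the TCF/LEF binding motif, CTTTGAA or CTTTGAT on either strand, within 2000 bases of the gene start. The region held 5 matches, a number that 2.96% of 21757 protein-coding genes reach. Of the 49 genes, 34 (69.4%) held at least 1 match, against 77.0% of all protein-coding genes, so the motif was not more frequent in them. The 3 matches that do not touch an exon are shown here on the plus strand of GRCm39, with the motif in capitals, because *Axin2* is such a reporter. The first lies 1286 bases upstream of the gene start at chr11:108809868-108809904, and the other is an intronic stretch with a pair of matches 889 and 909 bases downstream at chr11:108812043-108812099.
Axin2 upstream site: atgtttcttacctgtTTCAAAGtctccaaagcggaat
Axin2 intronic sites: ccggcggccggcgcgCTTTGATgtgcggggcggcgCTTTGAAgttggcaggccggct
A match is a description of the sequence and not evidence of binding.

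Among 56 further genes of the pathway, 50 were tested and 30 differed between the hem class and radial glia, 18 higher and 12 lower. Of all genes tested 42.2% differed, 21.9% higher and 20.4% lower, and the median log2 difference was -0.01 over the 50 genes and -0.02 over all genes. *Wls*, whose product carries Wnt proteins to the cell surface, read 388, 441, 322 and 513 CPM in the hem class and 32.6, 23.6, 24.9 and 18 CPM in radial glia (log2 4.22 ± 0.21). *Porcn*, the enzyme that attaches the lipid Wnts need for secretion, was also higher (log2 1.42 ± 0.25). So were the Wnt5a receptor gene *Ror1* (3.83 ± 0.41), the inhibitor gene *Apcdd1* (2.97 ± 0.28) and the polarity gene *Prickle2* (3.6 ± 0.29). Among the pathway targets of this list, *Sp5* was higher (3.04 ± 0.69) and *Ccnd1* lower (-1.89 ± 0.33). The other targets (*Myc*, *Tnfrsf19*, *Sp8* and *Emx2*) are not given here, so no direction is drawn for the targets. *Gpc4* (-1.88 ± 0.15) and *Ctnnb1* (-0.47 ± 0.06), the gene of β-catenin, were also lower.

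In the *Eomes* class, compared with radial glia to follow the genes along the path to neurons, 29 of 36 genes differed, 8 higher and 21 lower. Over all genes, 55.7% differed, 27.8% higher and 28.0% lower. Of the 29 genes that passed the filter in each class by itself, 8 were higher and 17 lower, where 57.5% of such genes differed, 28.8% higher and 28.7% lower. *Rspo3* read 68.1, 54.4, 29 and 34.4 CPM in the *Eomes* class (log2 1.89 ± 0.30 against radial glia). *Wnt5a* read 71.2, 39.5, 21.5 and 18.2 CPM (log2 1.84 ± 0.30). Both values were above those of radial glia in each library. *Nkd1* (log2 1.02 ± 0.29), *Wnt7b* (0.99 ± 0.18), *Fzd3* (0.61 ± 0.07), *Lrp5* (0.35 ± 0.09) and *Lrp6* (0.21 ± 0.06) were also higher. *Rspo2* (1.56 ± 0.57) was higher as well, but its log2 difference was -0.28 when the gates were set on nuclei thinned to 5000 transcripts.

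Most receptor, inhibitor and feedback genes were lower in the *Eomes* class. *Tcf7l1*, which acts mainly as a repressor in the absence of Wnt, read 445, 345, 446 and 397 CPM in radial glia and 47.3, 50.5, 68 and 42.7 CPM in the *Eomes* class (log2 -2.83 ± 0.16). *Wnt7a* read 18.4, 13.5, 19.2 and 25.5 CPM (log2 -2.52 ± 0.20). The classes did not overlap for these genes. The other log2 differences were -1.74 ± 0.10 for *Sfrp1*, -1.69 ± 0.12 for *Fzd8*, -1.68 ± 0.15 for *Tcf7l2*, -1.5 ± 0.13 for *Znrf3*, -1.46 ± 0.18 for *Rnf43*, -0.92 ± 0.17 for *Axin2* and -0.61 ± 0.17 for *Lef1*. *Wnt8b* (-1.52 ± 0.43) and *Sfrp2* (-1.55 ± 0.25) were lower too.

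In excitatory neurons 28 of 36 genes differed from radial glia, 4 higher and 24 lower, where 73.3% of all genes differed, 37.1% higher and 36.2% lower. Of the 31 genes that passed in each class by itself, 4 were higher and 22 lower, where 73.5% of such genes differed, 34.8% higher and 38.7% lower. The 4 higher genes were *Rspo3*, *Rspo2*, *Wnt7b* and *Lgr5*. *Rspo3* read 208, 105, 139.8 and 117 CPM in neurons (log2 3.88 ± 0.31) and *Wnt7b* 38.2, 57.4, 84.9 and 77.4 CPM (log2 1.88 ± 0.18). *Rspo2* read 6.21, 13.5, 10.9 and 16.6 CPM (log2 2.55 ± 0.53) and *Lgr5* 3.26, 3.39, 3.12 and 2.32 CPM (log2 1.07 ± 0.26). *Rspo3* and *Wnt7b* in neurons lay above radial glia in every library.

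In neurons 8 of 10 Frizzled genes were lower, and of the 12 co-receptor, feedback and nuclear genes 9 were lower and 1, *Lgr5*, was higher. *Fzd3*, *Fzd10*, *Lrp6* and *Lgr4* did not pass. *Tcf7l1* read 15.3, 8.49, 13.3 and 9.5 CPM (log2 -4.65 ± 0.17), *Tcf7l2* 36.6, 20.4, 26.7 and 24.3 CPM (log2 -3.19 ± 0.16) and *Fzd8* 1.30, 1.77, 2.34 and 2.11 CPM (log2 -4.0 ± 0.12). The log2 difference was -3.35 ± 0.20 for *Wnt7a*, -3.24 ± 0.18 for *Rnf43*, -3.01 ± 0.11 for *Sfrp1*, -2.54 ± 0.13 for *Znrf3*, -2.12 ± 0.17 for *Fzd2*, -1.71 ± 0.17 for *Axin2* and -1.64 ± 0.17 for *Lef1*. *Nkd1* did not follow the other 3 feedback genes, since it was higher in the *Eomes* class than in radial glia (log2 1.02 ± 0.29, not called without Dnmt1 KO 1, where it was 0.91). *Axin2*, *Rnf43* and *Znrf3* stood by mean level in the order hem class, radial glia, *Eomes* class, neurons. Neighbours in this order overlapped for *Rnf43* and *Znrf3* between the hem class and radial glia and not elsewhere, and the *Eomes* class and neurons were tested against radial glia, not against each other. The median log2 difference of the 36 genes was -0.88 in the *Eomes* class and -1.36 in neurons, against 0.00 and 0.01 over all genes tested. With plain CPM in place of TMM scaling, the median of all genes against radial glia was -0.23 in the hem class, -0.14 in the *Eomes* class and -0.44 in neurons, and no called gene of the 36 changed sign.

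**Figure D3:**
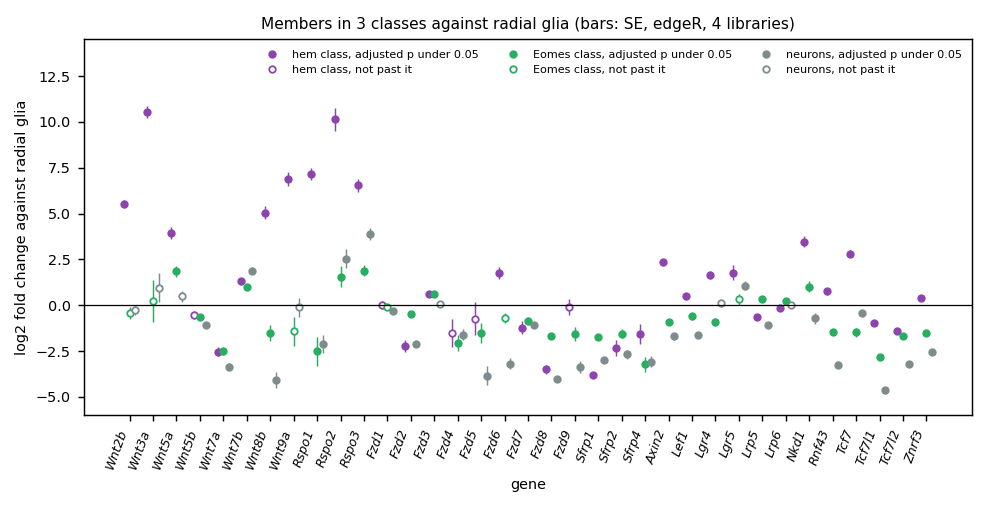
Log2 difference from radial glia of each tested gene except *Fzd10* in the hem class, the *Eomes* class and excitatory neurons (edgeR, bars show the standard error, filled points passed the adjusted threshold). *Rspo3* is above 0 in all 3 comparisons, *Wnt7a*, *Sfrp1* and *Fzd8* are below 0 in all 3, and *Wnt3a*, *Wnt9a* and *Wnt8b* are far above 0 only in the hem class.

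Interneurons, the class that contains the deleted lineage, had the second highest level of *Wnt7a* after radial glia, with 90.5, 58.5, 77.6 and 92.9 CPM against 4.51, 7.73, 10.2 and 10.8 CPM in excitatory neurons. *Wnt7b* had the opposite order, with 10.1, 14.4, 21.2 and 18.5 CPM in interneurons. The libraries of the 2 neuron classes did not overlap for either gene. The level in interneurons is a description and was not tested against the other classes.

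Genotype comparisons of the same sums gave no gene below an adjusted p of 0.05 in any of the 5 classes by edgeR, neither among the 49 genes nor among the 9878 to 19103 genes tested, so 0.0% of all genes were called. At an unadjusted p under 0.05, 1 of 26 tested Wnt genes stood out in the hem class (4.35% of all genes), 11 of 32 in radial glia (6.82%), 10 of 29 in the *Eomes* class (6.52%), 5 of 36 in excitatory neurons (5.89%) and 4 of 28 in interneurons (4.21%). DESeq2 called 0 Wnt genes in 4 classes and 4 in the *Eomes* class. Over the alternatives the counts at an unadjusted p under 0.05 ran from 0 to 6 genes in the hem class, 3 to 16 in radial glia (3 of 33 without control 2), 7 to 13 in the *Eomes* class, 1 to 14 in neurons (1 of 37 without control 2) and 1 to 4 in interneurons. Over all genes DESeq2 called 0 in the hem class, 34 in radial glia, 57 in the *Eomes* class, 63 in neurons and 3 in interneurons. The values below are therefore descriptions of 2 libraries against 2, none of which passed edgeR's test.

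In the hem class the groups overlapped for every tested Wnt ligand and R-spondin. *Rspo2* had a log2 difference of -0.27 ± 0.42 (Dnmt1 KO over control), *Wnt3a* of 0.10 ± 0.24, *Wnt8b* of -0.11 ± 0.39, *Wnt5a* of -0.05 ± 0.29 and *Axin2* of -0.32 ± 0.34. Within batch 1, that is without control 2 and its 25 hem nuclei, the values were 0.42 for *Rspo2*, 0.38 for *Wnt3a*, 0.60 for *Wnt8b*, 0.25 for *Wnt5a* and 0.19 for *Axin2*, so the sign of 4 of the 5 turned and no direction is drawn for them. *Rspo1* had 0.35 ± 0.31 with all libraries and 0.80 within batch 1, where no gene of the list passed the adjusted threshold. The gene with an unadjusted p under 0.05 was *Fzd6*, with 6.56 and 11.1 CPM in the Dnmt1 KO against 17.5 and 29.5 CPM in control nuclei (log2 -1.35 ± 0.47, unadjusted p = 0.0277, edgeR adjusted p = 0.953). *Rnf43* read 73.8 and 54.4 CPM in the Dnmt1 KO against 26.7 and 50.8 CPM in control nuclei (log2 0.75 ± 0.36). The log2 difference was 0.56 ± 0.36 for *Lef1*, -0.42 ± 0.61 for *Wnt7a* and -0.04 ± 0.24 for *Wnt7b*, each with overlapping groups. Within batch 1 it was 0.99 for *Lef1* and 1.25 for *Rnf43*, so their size depends on control 2. With the range of the nucleus filter on mapped reads *Lef1* and *Wnt7a* changed sign, as listed further below. The list of 5 intermediate progenitor genes was lower in both Dnmt1 KO libraries of this class (44.8 and 30.3 CPM against 52.4 and 57.4 CPM). The list of 6 hem genes was higher in both (327 and 284 CPM against 264 and 279 CPM). The part of these lists in the values was not tested. The hem class itself took a larger share of the nuclei in both Dnmt1 KO libraries than in either control, a difference that was not tested. Over all nuclei *Rspo1* read 4.98 and 2.16 CPM in the Dnmt1 KO and 1.13 and 1.04 CPM in the control libraries. The part of the hem share in this level was not tested.

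In radial glia 9 of the 11 genes were higher and 2 lower in the Dnmt1 KO libraries, where 3.41% of all genes passed the same limit in each direction. *Lef1*, a nuclear effector and target of the pathway, read 274 and 168 CPM in the Dnmt1 KO against 143 and 81 CPM in control nuclei (log2 1.01 ± 0.34, unadjusted p = 0.03, edgeR adjusted p = 0.712). *Rnf43* read 45.2 and 42.3 CPM in the Dnmt1 KO against 29.4 and 14.9 CPM in control nuclei (log2 1.02 ± 0.32). *Wnt8b* read 21.4 and 8.34 CPM in the Dnmt1 KO against 6.17 and 4.26 CPM in control nuclei (log2 1.53 ± 0.50). In each of these genes the CPM of the groups did not overlap and control 2, the library of batch 2, was the lowest. The share of radial glia with a *Lef1* transcript did overlap, at 68.4%, 37.7%, 42.4% and 32.1% on a median of 11231, 10667, 11306 and 16903 transcripts, with Dnmt1 KO 2 below control 1. Without Dnmt1 KO 1, the highest library, the log2 difference was 0.64 for *Lef1*, 0.73 for *Wnt8b* and 0.99 for *Rnf43*. Within batch 1, against control 1 alone, the log2 differences were 0.64 for *Lef1*, 0.60 for *Rnf43* and 1.28 for *Wnt8b*.

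*Wnt5a* in radial glia read 15.3 and 12.7 CPM in the Dnmt1 KO against 9.57 and 5.73 CPM in control nuclei (log2 0.90 ± 0.29) and *Rspo3* 21.7 and 14.8 CPM in the Dnmt1 KO against 10.6 and 7.72 CPM in control nuclei (log2 1.03 ± 0.27). *Lgr4*, an R-spondin receptor gene, read 31.7 and 19.5 CPM in the Dnmt1 KO against 13.7 and 15 CPM in control nuclei (log2 0.87 ± 0.25, 0.50 without Dnmt1 KO 1). *Wnt7a* read 110.0 and 91 CPM in the Dnmt1 KO against 131 and 154 CPM in control nuclei (log2 -0.46 ± 0.13) and was lower in both Dnmt1 KO libraries than in either control (-0.36 within batch 1). *Axin2*, by contrast, read 69.8 and 47.1 CPM in the Dnmt1 KO against 56.3 and 59.5 CPM in control nuclei, with overlapping groups (log2 0.05 ± 0.19). *Wnt7b* overlapped as well (log2 0.15 ± 0.48). Over the 32 tested genes, 12 had both Dnmt1 KO libraries above both controls, where 14.8% of all genes had, and 5 the reverse, where 24.7% of all genes had. The median log2 difference was 0.26 over the 32 genes and 0.00 over all genes tested.

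The lowest unadjusted p in radial glia belonged to *Rspo2*, which averaged under 5 CPM and is named here because of that value (log2 2.57 ± 0.39, unadjusted p = 0.000919, edgeR adjusted p = 0.712). It rested on few nuclei. Its 61, 54, 5 and 8 transcripts came from 12, 9, 5 and 7 nuclei, with 43 and 41 of them in 1 nucleus each of the Dnmt1 KO libraries. Without the 12, 13, 5 and 4 radial glia nuclei that had an *Lmx1a* transcript, *Rspo2* read 1.02, 1.05, 0.508 and 1.08 CPM, with overlapping groups, and no longer passed the filter. *Lef1* and *Wnt5a* kept log2 differences of 0.99 and 0.86 in that setting, which was chosen after seeing the data. The summed hem genes in radial glia were 33.1 and 15.2 CPM in the Dnmt1 KO libraries and 30.7 and 12.7 CPM in the controls. The list of 5 intermediate progenitor genes summed to 29.9 and 27 CPM against 21.7 and 18.6 CPM there, the list of 3 choroid genes to 10.2 and 10.6 CPM against 8.06 and 5.06 CPM and that of 5 interneuron genes to 157 and 176 CPM against 155 and 130.4 CPM, so these 3 were higher in each Dnmt1 KO library than in each control. On the 5 radial glia genes Dnmt1 KO 1 stood apart, with 3109 CPM in radial glia against 5929, 4753 and 4582 CPM in the other libraries, and it was the highest library for *Lef1*, *Wnt8b*, *Wnt5a* and *Rspo3*. The part of these lists in the genotype values was not tested.

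In the *Eomes* class 8 of the 10 genes at an unadjusted p under 0.05 were higher (3.19% of all genes) and 2 lower (3.33%) in the Dnmt1 KO libraries. The lower ones were both tested genes of secreted Frizzled-related proteins, *Sfrp1* (log2 -0.41 ± 0.14) and *Sfrp2* (-0.88 ± 0.33). *Lef1* read 175 and 102 CPM in the Dnmt1 KO against 63.7 and 58.4 CPM in control nuclei (log2 1.22 ± 0.26, unadjusted p = 0.00407, edgeR adjusted p = 0.583). *Wnt5a* read 71.2 and 39.5 CPM in the Dnmt1 KO against 21.5 and 18.2 CPM in control nuclei (log2 1.52 ± 0.30). *Rnf43* read 14.4 and 14.3 CPM in the Dnmt1 KO against 8.76 and 5.55 CPM in control nuclei (log2 1.06 ± 0.26). Both Dnmt1 KO libraries lay above both controls for the 3 genes, and Dnmt1 KO 1 was the highest for *Lef1* and *Wnt5a*. Within batch 1 the log2 differences were 1.15, 1.40 and 0.75, and without Dnmt1 KO 1 they were 0.77, 1.04 and 1.06. *Wnt7a* (log2 -0.46 ± 0.23) was lower in both Dnmt1 KO libraries, and *Wnt7b* (-0.20 ± 0.17) overlapped. *Rspo3* read 68.1 and 54.4 CPM in the Dnmt1 KO against 29 and 34.4 CPM in control nuclei (log2 0.99 ± 0.17) and *Axin2* 31.6 and 31.7 CPM in the Dnmt1 KO against 22 and 24.4 CPM in control nuclei (log2 0.49 ± 0.13). DESeq2 called *Lef1*, *Wnt5a*, *Rspo2* and *Rspo3* in this class, among 57 genes called in all. With a single Dnmt1 KO library left, edgeR called 4 genes of the list without Dnmt1 KO 1 and 6 without Dnmt1 KO 2, where 1.07% and 3.66% of all genes passed. In these fits the spread comes from the 2 controls alone and the lone library is assumed to vary like them, so the calls lend the DESeq2 calls no support.

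*Rspo2* in the *Eomes* class read 16.9 and 11.2 CPM in the Dnmt1 KO against 3.01 and 2.64 CPM in control nuclei (log2 2.35 ± 0.30), of which 57 and 40 transcripts of the Dnmt1 KO libraries lay in 1 nucleus each. The choroid genes summed to 9.93 and 7.87 CPM in this class of the Dnmt1 KO and 6.67 and 4.00 CPM of the control libraries. The 5 excitatory neuron genes summed to 1527 and 1687 CPM in the Dnmt1 KO and 1776 and 1946 CPM in the control libraries and were thus lower in the former. The 5 radial glia genes summed to 350 CPM in Dnmt1 KO 1, well below the 860, 682 and 765 CPM of the other libraries. The part of these lists in the values of *Lef1*, *Wnt5a*, *Axin2* and the other genes was not tested. Without the nuclei with an *Lmx1a* transcript *Rspo2* read 3.77 and 8.13 CPM in the Dnmt1 KO and 3.06 and 2.67 CPM in the control libraries (log2 1.12), and *Rspo3* had a log2 difference of 0.62. *Lef1* (1.20) and *Wnt5a* (1.47) stayed close to their values with those nuclei. Of the 29 tested genes, 10 had both Dnmt1 KO libraries above both controls (14.2% of all genes) and 6 the reverse (25.5%).

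In excitatory neurons *Wnt7b* read 38.2 and 57.4 CPM in the Dnmt1 KO against 84.9 and 77.4 CPM in control nuclei (log2 -0.74 ± 0.21, unadjusted p = 0.017, edgeR adjusted p = 0.789). *Wnt7a* read 4.51 and 7.73 CPM in the Dnmt1 KO against 10.2 and 10.8 CPM in control nuclei (log2 -0.74 ± 0.27). Both ligands were lower in each Dnmt1 KO library than in each control, and within batch 1 the log2 differences were -0.79 and -0.68. *Lef1* read 73.3 and 32.8 CPM in the Dnmt1 KO against 27.1 and 22 CPM in control nuclei (log2 1.14 ± 0.39) and *Wnt5a* 21.8 and 9.07 CPM in the Dnmt1 KO against 8.14 and 6.71 CPM in control nuclei (log2 1.07 ± 0.42). Here Dnmt1 KO 1 stood apart, and the other libraries lay close together. Without it the log2 difference was 0.44 for *Lef1*, 0.32 for *Wnt5a*, -0.47 for *Wnt7b* and -0.42 for *Wnt7a*. *Rnf43* read 3.13 and 3.13 CPM in the Dnmt1 KO against 2.01 and 1.37 CPM in control nuclei (log2 0.92 ± 0.24), and *Axin2* overlapped (log2 0.10 ± 0.16). The 6 hem genes summed to 3.9 and 2.99 CPM in neurons of the Dnmt1 KO libraries and to 1.87 and 0.881 CPM in those of the controls, the 3 choroid genes to 19.1 and 23.9 CPM against 17 and 5.83 CPM and the 5 interneuron genes to 69.0 and 69.5 CPM against 67.9 and 49.6 CPM. Lower in both Dnmt1 KO libraries were the 5 excitatory neuron genes (3300 and 3623 CPM against 3676 and 3735 CPM) and the 5 radial glia genes (1266 and 1286 CPM against 1332 and 1425 CPM). The part of these lists in the values of *Wnt7b*, *Wnt7a* and the other genes was not tested. Both groups were without overlap for 8 genes in the higher and 6 in the lower direction, where 14.2% and 24.6% of all genes were. *Wnt8b*, at most 1.08 CPM in neurons, had the largest log2 value (2.21 ± 0.65) on 49, 41, 11 and 10 transcripts.

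*Lef1* and *Wnt5a* were not spread evenly over the neurons. In neurons with at least 2 *Prox1* transcripts, a marker of the hippocampal dentate granule lineage, *Lef1* read 259, 199, 108 and 119 CPM and *Wnt5a* 115, 82.3, 76 and 72.9 CPM, against 66.5, 27.1, 25.2 and 20.01 CPM and 18.6, 6.81, 6.64 and 5.62 CPM in neurons without a *Prox1* transcript. The neurons with *Prox1* numbered 60, 155, 53 and 40 nuclei, of 2988, 7060, 3837 and 3251. *Axin2* (53.5, 67.9, 66.3 and 34.5 CPM) was also higher in them than in neurons without *Prox1* (13.1, 9.5, 11.8 and 10.8 CPM), with no overlap. Their part in the genotype values of the neuron class was not tested.

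In interneurons *Wnt7b* read 10.1 and 14.4 CPM in the Dnmt1 KO against 21.2 and 18.5 CPM in control nuclei (log2 -0.60 ± 0.21, unadjusted p = 0.0306, edgeR adjusted p = 0.907) and *Lef1* 22.3 and 15.7 CPM in the Dnmt1 KO against 13.3 and 8.33 CPM in control nuclei (log2 0.84 ± 0.29). *Rnf43* read 2.11 and 3.76 CPM in the Dnmt1 KO against 1.80 and 0.793 CPM in control nuclei (log2 1.27 ± 0.49). *Wnt7a* read 90.5 and 58.5 CPM in the Dnmt1 KO against 77.6 and 92.9 CPM in control nuclei, with overlapping groups (log2 -0.15 ± 0.24). With the range of the nucleus filter set on mapped reads *Wnt7b* turned to 0.066 and *Sfrp1* to 0.16, and 1 of 24 genes in place of 4 of 28 had an unadjusted p under 0.05, as did 1 of 24 without doublets and 1 of 28 with the replicate block. *Axin2* (log2 -0.25 ± 0.21), *Znrf3* (-0.16 ± 0.13), *Sfrp1* (-0.30 ± 0.18) and *Lrp5* (-0.28 ± 0.15) had lower values in both Dnmt1 KO libraries than in either control, by small margins. The 5 interneuron genes summed to 23175 and 22156 CPM in the Dnmt1 KO against 15185 and 19837 CPM in the control libraries of this class, and the 6 hem genes to 3.52 and 3.08 CPM against 3.06 and 1.88 CPM, and their part in these values was not tested. Groups did not overlap for 4 genes in the higher and 8 in the lower direction, where 11.1% and 26.1% of all genes did not. Interneurons were 5.76% and 13.2% of the Dnmt1 KO nuclei and 19.7% and 9.72% of the control nuclei.

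*Lef1* and *Rnf43* were thus higher in both Dnmt1 KO libraries than in both controls in radial glia, the *Eomes* class, excitatory neurons and interneurons, while *Axin2* was so in the *Eomes* class alone. These classes come from the same libraries, so they are not independent of each other. In each class by itself 14.8%, 14.2%, 14.2% and 11.1% of all genes had this order, and the share with it in every class was not counted. *Rnf43* in interneurons rests on few transcripts, with 2.11 CPM of 4264153 transcripts in Dnmt1 KO 1 and 1.80 CPM of 18327462 in control 1. Among the 56 further pathway genes, 0 passed in any class. At an unadjusted p under 0.05 there were 3 of 39 in the hem class (1 higher and 2 lower, against 4.35% of all genes), 10 of 47 in radial glia (6 and 4, against 6.82%), 6 of 44 in the *Eomes* class (5 and 1, against 6.52%), 6 of 48 in neurons (5 and 1, against 5.89%) and 2 of 47 in interneurons (1 and 1, against 4.21%), with *Ror1* at log2 0.99 ± 0.21 in radial glia and 1.62 ± 0.45 in the *Eomes* class.

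**Figure D4:**
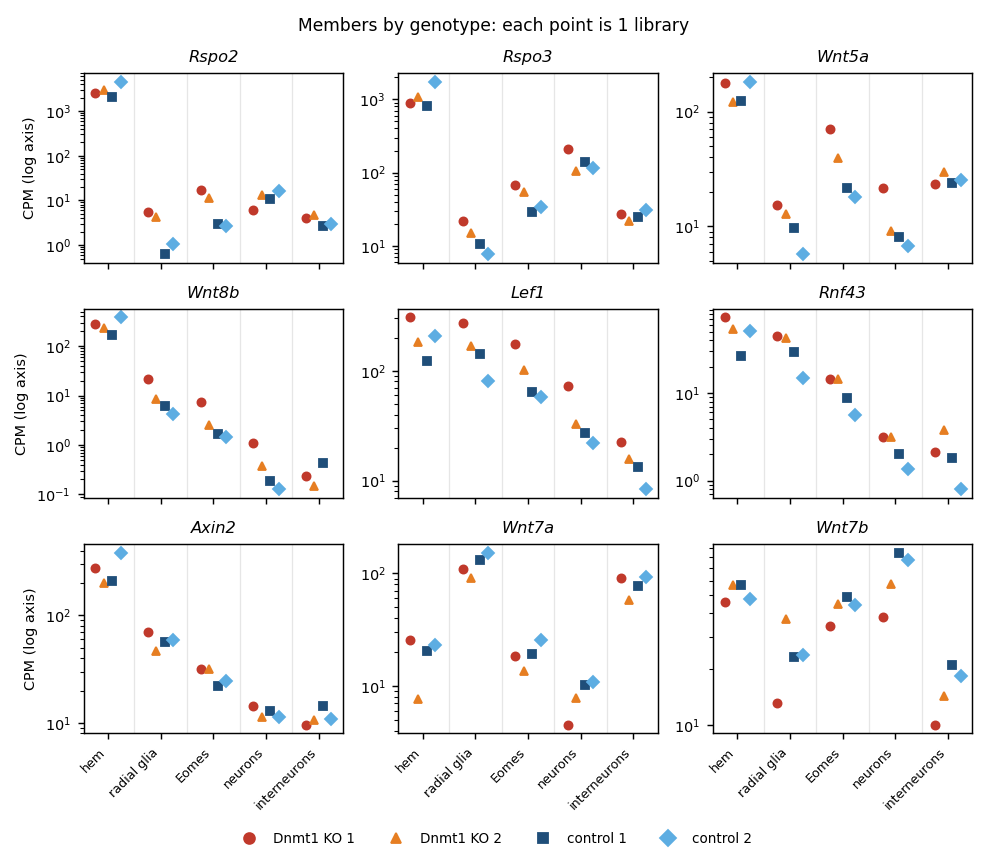
Level of selected genes per library in each class on a log axis of CPM, with 1 symbol per library. *Lef1* points of the Dnmt1 KO lie above those of the control in radial glia, the *Eomes* class, neurons and interneurons, *Axin2* points overlap in most classes, and *Wnt8b* in interneurons of control 2 is at 0 and not drawn.

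Whether the genotype difference itself differed between classes was tested by an interaction term. No gene passed edgeR's threshold in any of the 3 interactions (0.0% of all genes). At an unadjusted p under 0.05, 7 of 36 Wnt genes stood out for the hem class against radial glia (7.06% of all genes), 1 for the *Eomes* class (2.34%) and 2 for neurons (2.26%). *Rspo2* had a difference of -2.76 ± 0.67 log2 units for the hem class (unadjusted p = 0.00143, edgeR adjusted p = 0.577) and of -3.06 ± 0.67 for neurons, and it rests on the few radial glia nuclei described above. With 1 *Lmx1a* transcript as the gate it was 0.090 for the hem class. *Wnt7b* in neurons had -0.81 ± 0.29. For *Lef1* the interaction was 0.15 ± 0.36 in the *Eomes* class and 0.03 ± 0.35 in neurons, so no difference between these classes in its genotype difference was detectable.

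**Figure D5:**
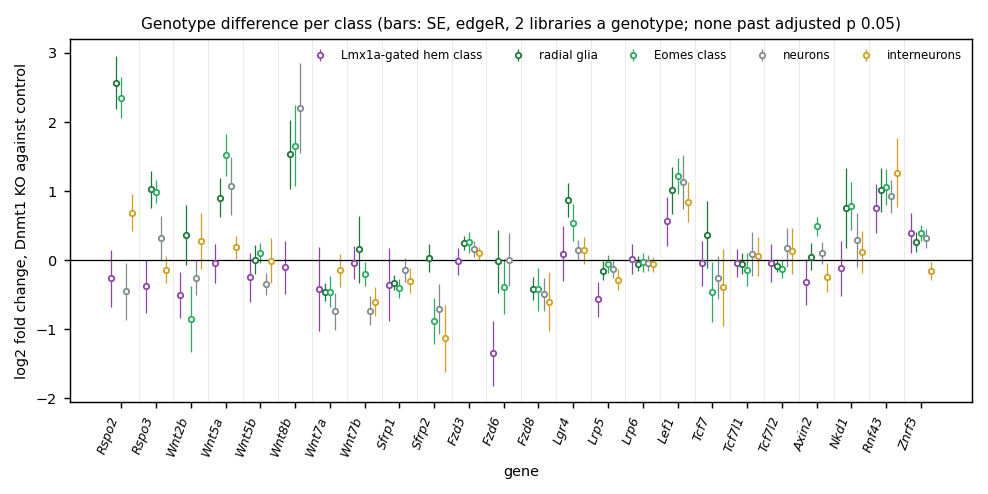
Log2 difference Dnmt1 KO over control of selected genes in the hem class, radial glia, the *Eomes* class, neurons and interneurons, where they were tested (edgeR, bars show the standard error). *Lef1* and *Rnf43* lie above 0 in all classes drawn and *Wnt7a* below 0, and none passed the adjusted threshold.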

How the data were processed

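Nuclei of 4 libraries were barcoded by split-pool indexing (Parse Evercode), and the authors aligned and counted the reads with Trailmaker against GRCm39 (mm39). They deposited unfiltered counts of transcripts per barcode and gene with no normalization. Per the labels, R 4.4.1 and Seurat 5.0.1.9001 were used later by the authors. The annotation release, strand setting and treatment of intronic reads are not given in the sources used here. The files held 209159 to 328873 barcodes and 96455278 to 201141704 transcripts per library.

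Barcodes were kept when they held between 1500 and 60000 transcripts, and a mitochondrial limit of 10% removed 0 further nuclei. The study's methods word this range as reads per cell in a filter on counts, so its own filter may be on reads. With the range on mapped reads, run as an alternative, control 2 kept 12 in place of 25 hem nuclei and 303 in place of 411 radial glia, and several genotype differences changed sign. Doublets called by scrublet (scanpy 1.11.5, Python 3.11.15, numpy 2.4.6), 2.87% to 7.73% of nuclei, were kept. Nuclei were gated in a fixed order. Rare classes needed 3 detected markers of their list, the hem class 2 *Lmx1a* and the *Eomes* class 2 *Eomes* transcripts, interneurons 2 markers, radial glia 3 of 8 glial markers and more of these than of the neuron list, and neurons 3 of that list. Where each nucleus was thinned to 5000 transcripts for the gates, shallower nuclei were left out.

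Counts were summed per library and class and tested with edgeR 4.0.16 (R 4.3.3, limma 3.58.1), using TMM scaling, filterByExpr, the quasi-likelihood test and Benjamini-Hochberg adjustment over all genes tested at 0.05. Class comparisons had the library as a block, genotype comparisons the genotype alone, and interactions both terms. The standard error was the absolute log2 difference divided by the square root of F. DESeq2 1.42.0 was an alternative. The code was tested on simulated data. Coordinates came from GENCODE vM39, which matched 56323 of 56884 identifiers and all 49 genes of the report, of which 37 overlap another gene and 5 a protein-coding gene. Counting intervals are exact 95% intervals and cover counting error only.

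Genes are named by a rule. In class comparisons these are up to 12 called genes with the largest log2 difference among those at 5 CPM or more in either class. In genotype comparisons they are called genes or, with none, up to 6 with the smallest unadjusted p at 5 CPM or more, and the differences of *Axin2*, *Lef1*, *Rnf43*, *Wnt7a* and *Wnt7b* are added in each class. Other genes were named after their values were seen. For classes without a test these are the 3 genes with the highest ratio to the mean of the other classes, at 20 or more transcripts. The genes and lists were chosen with earlier results of these data known.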

Additional observations from a re-analysis of the deposited data

Results flagged for a closer look

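For *Axin2* every Dnmt1 KO library lay above every control in the *Eomes* class (log2 0.49), while every one lay below in interneurons (log2 -0.25). *Znrf3* had the same opposite order, with 0.40 in the *Eomes* class and 0.31 in excitatory neurons against -0.16 in interneurons. Of all genes, 14.2% had the higher order in the *Eomes* class and 14.2% in excitatory neurons. The lower order held for 26.1% of all genes in interneurons, where the margins of both genes were small. The differences between these classes were not tested, and no value passed the adjusted threshold by edgeR.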

How the results depend on the processing

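The called counts of the class comparisons stayed within 1.5 times under every alternative, with 25 to 32 genes for the hem class, 20 to 29 for the *Eomes* class and 24 to 28 for neurons against radial glia. One call reversed, *Rspo2* in the *Eomes* class against radial glia (log2 -0.28 with gates on nuclei thinned to 5000 transcripts). In the genotype comparisons, with 0 calls by edgeR, DESeq2 called 4 genes in the *Eomes* class (0.408% of all genes) and 1 for the interaction of the hem class (0.0567%). Without a low-count filter 3 genes were called in radial glia (0.343% of all genes), 7 in the *Eomes* class (1.51%), 6 in neurons (1.70%), 1 in interneurons (0.813%), 5 for the interaction of the hem class (0.756%) and 1 for that of neurons (0.357%). Leaving out a library gave 0 to 6 called genes in the *Eomes* class and 0 in every other genotype comparison. Each such fit has an arm of 1 library, which is assumed to vary like the other arm. The cause of these differences was not tested.

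Of the uncalled genotype differences that were recomputed, these changed sign by at least their standard error. With the range on mapped reads, which left 12 hem nuclei in control 2, *Lef1* and *Wnt7a* in the hem class were -0.081 and 0.23, and *Wnt7b* and *Sfrp1* in interneurons 0.066 and 0.16. With 1 *Lmx1a* transcript as the gate, *Axin2*, *Wnt2b*, *Wnt5a*, *Wnt8b* and *Rspo2* in the hem class were 0.38, 0.10, 0.70, 0.64 and 0.44, and the interaction of *Rspo2* in the hem class was 0.090. With gates on thinned nuclei *Wnt3a* in the hem class was -0.17. *Wnt7b* in the hem class was 0.25 without choroid genes and 0.61 without neuron genes. Leaving out 1 library gave -0.68 to 0.19 for *Axin2*, -0.93 to 0.029 for *Wnt2b*, -1.496 to 0.23 for *Wnt7a*, -0.33 to 0.25 for *Wnt5a*, -0.58 to 0.60 for *Wnt8b*, -0.72 to 0.42 for *Rspo2* and -0.0004 to 0.80 for *Rspo1* in the hem class, -0.24 to 0.29 for *Axin2* and -0.82 to 0.72 for *Wnt7b* in radial glia, -0.063 to 0.26 for *Axin2* in neurons, -0.49 to 0.15 for *Wnt7a* in interneurons and -0.23 to 0.47 for the interaction of *Lef1* in the *Eomes* class. Smaller changes of sign are not listed one by one. Among them, plain CPM in place of TMM scaling gave 0.0050 for *Wnt8b* in the hem class and -0.014 and -0.084 for *Axin2* and *Wnt7b* in radial glia.

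With the replicate block, 0 genes were called in each of the 5 classes. The labels give same-numbered libraries nothing in common beyond the number and the stage. Their deviations correlated at -0.215 to 0.118 over the classes. With a single pair of deviations per class this cannot show whether they share a litter or processing. With the numbers of the controls crossed, 0 genes were called in interneurons. There were 2 libraries a genotype, 1 batch held a single control, and that control had 25 hem nuclei. Small genotype differences were therefore not detectable at this depth, and larger ones could be missed. In simulated counts of the radial glia genotype comparison, 20 of 96 genes changed 2-fold were called and 78 of 93 changed 4-fold. Of the unchanged genes 14 were called. Apart from the set changes, the simulation gave all libraries the same mean per gene and no batch. These shares may therefore not hold for the real counts.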

Other observations

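Classes outside the tests had Wnt genes of their own, given here as values. In Cajal-Retzius nuclei, of cells that settle at the cortical surface, *Rspo3* read 698, 609.5, 269 and 245 CPM. The R-spondin receptor gene *Lgr5* read 72.1, 33.3, 6.65 and 2.66 CPM. Both were higher in each Dnmt1 KO library than in each control, on 97, 182, 65 and 56 nuclei. The gate did not separate these nuclei by origin. *Wnt7b* read 104, 91.1, 109 and 130.4 CPM there and was lower in each Dnmt1 KO library than in each control. The share of all genes separated by genotype was not counted in this class. The *Lgr5* values of the controls rest on few transcripts, since the class summed to 1653991 and 1878491 transcripts in them. Endothelial nuclei had the highest level of *Fzd6* (345, 234, 345 and 366 CPM), of *Fzd4* (24.1, 27.3, 18.8 and 19.4 CPM), a receptor gene of the retinal and brain vasculature, and of *Lef1* (1079, 880.4, 1029.8 and 988 CPM). In mural nuclei *Wnt5b* (98.9 pooled CPM), *Axin2* (183) and *Tcf7l1* (394) had the highest ratios to the mean of the other classes, although each was higher in at least 1 other class. In meningeal nuclei, nearly all of them from Dnmt1 KO 2, *Wnt6* read 18.6, *Wnt4* 29.1 and *Lgr4* 257 pooled CPM, and in choroid nuclei, 121 of them from the same library, *Lef1* read 596, *Rnf43* 65.8 and *Rspo2* 833 pooled CPM. *Lrp5* read 174 pooled CPM in microglia, and *Tcf7l2* read 319 pooled CPM in oligodendrocyte precursors, below its level in meningeal nuclei (483), endothelial nuclei (379) and radial glia (340).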
